A study of Homo sapiens with 12 samples.

Results

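The genes described here are 43 genes that prostate cells are known to induce in response to androgens, taken by symbol from the LNCaP gene table. They cover transcription regulators, kinases and receptors, ubiquitin ligases and traffic proteins, transporters, enzymes, keratins and a pair of genes named as open reading frames. All were found among the 34643 rows of the table, reached at least 1 CPM (counts scaled to the library total after TMM normalisation) in at least 1 group, and were among the 15419 genes tested. The cells were LNCaP, a human line from a prostate cancer metastasis that depends on androgens, and carried either an shRNA against TMEFF2 (shTMEFF2) or a scramble control (shScramble). Both were expressed from the U6 promoter of a lentiviral pLKO.1-puro plasmid, and both lines were selected with puromycin, so the control carries the same vector and selection. Cells were held for 24 h in charcoal-stripped serum and then treated for 24 h with 10 nM dihydrotestosterone (+DHT) or ethanol vehicle (−DHT), which gave 4 groups of 3 libraries. The repeats were separate treatments and extractions that came from 2 transductions, without a statement of which repeat belongs to which, so p-values measure the spread between treatments and not between many independent lines. Which TMEFF2 shRNA was sequenced is not given in the sources used here.

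Androgens are steroid hormones that act on transcription: their signal reaches response elements in DNA, mostly in enhancers at some distance from the genes they serve. In luminal prostate cells they drive secretion, lipid and polyamine metabolism, ion transport and differentiation, and many of the induced genes also restrain growth signals. LNCaP responds to androgens and is the common cell model of this response.

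The libraries held 19450866 to 22612046 estimated counts, with a median of 21194622. TMEFF2, the targeted gene, was present at 77.8, 73.8 and 103 CPM in shScramble −DHT and at 68.6, 39.3 and 81.7 CPM in shTMEFF2 −DHT. With DHT it was present at 173, 117 and 169 CPM in shScramble and at 142, 90.1 and 114.5 CPM in shTMEFF2. The groups overlapped, and the log2 differences between the lines, −0.43 without and −0.41 with DHT, did not pass the test (edgeR, adjusted p = 0.50 and 0.30), so the lines are named here by their labels. The paper reports Western blots in which some of its TMEFF2 shRNAs appreciably silenced TMEFF2 in LNCaP cells. It also plots TMEFF2 mRNA in LNCaP cells with its silencing shRNAs or the scramble control, with and without DHT, and cites this as silencing. The values of that plot are not given in its text and were not compared with those above. Protein was not measured in these libraries. All 8 luminal prostate markers examined were at 1 CPM or more in at least 1 group, KRT5, a basal keratin, was at 0 in all libraries, and the basal markers never summed to more than 1.77 CPM. The summed luminal markers include the members KRT8 and KRT18 and the androgen-induced genes KLK2 and KLK3. KLK3 alone had means of 1925 and 7495 CPM in shScramble and 356 and 1949 CPM in shTMEFF2, without and with DHT. The sum thus carries the DHT response and is not a separate measure of luminal content. It ranged from 6657 to 6891 CPM in shScramble −DHT and from 13239 to 14974 CPM in shScramble +DHT. In shTMEFF2 it ranged from 4277 to 4861 CPM without and from 5117 to 6477 CPM with DHT. Summed stromal markers ranged from 12.3 to 31.7 CPM over all libraries, immune markers from 7.86 to 12.6 CPM, endothelial markers from 13.3 to 29.5 CPM and neuroendocrine markers from 1.95 to 3.94 CPM. Fewer cells of a type and less RNA per cell cannot be told apart in such bulk libraries. Within its group, shTMEFF2 +DHT replicate 1 had the lowest values for the members, with a median deviation of −0.14 on the log2 scale against −0.05 to 0.08 in the other libraries.

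In shScramble, DHT raised 35 of the 43 genes at least 1.5-fold at an adjusted p not above 0.05 (edgeR), against 5.45% of all genes tested that passed the same limits as higher. In shTMEFF2 it raised 16, against 3.28% of all genes. It lowered 0 of the 43 in either line, with 0 lower at an unadjusted p under 0.05 and 0 by DESeq2 or limma-voom. The median log2 response of the 43 genes was 1.35 in shScramble and 0.47 in shTMEFF2, whereas the medians over all genes were −0.01 and −0.02. All 16 genes raised in shTMEFF2 were also raised in shScramble, 19 were called in shScramble alone, and 0 were called in shTMEFF2 alone. By the adjusted p alone the numbers were 39 and 19. Every +DHT library lay above every −DHT library for 40 genes in shScramble (21.3% of all genes) and for 27 genes in shTMEFF2 (15.6% of all genes), of which 11 were not called.

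The test of the difference itself, the response in shTMEFF2 minus the response in shScramble, gave a smaller response in shTMEFF2 for 25 of the 43 genes at an adjusted p not above 0.05, against 3.29% of all genes with a smaller response. It was larger for 0 genes, also at an unadjusted p under 0.05 and by DESeq2 or limma-voom (edgeR otherwise). The median difference was −0.92 on the log2 scale (0.01 over all genes), and 42 of the 43 estimates lay below 0. The exception was NCOA4, at 0.02. The other 18 genes did not pass the test of the difference, which does not show that their responses were equal.

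**Figure D1:**
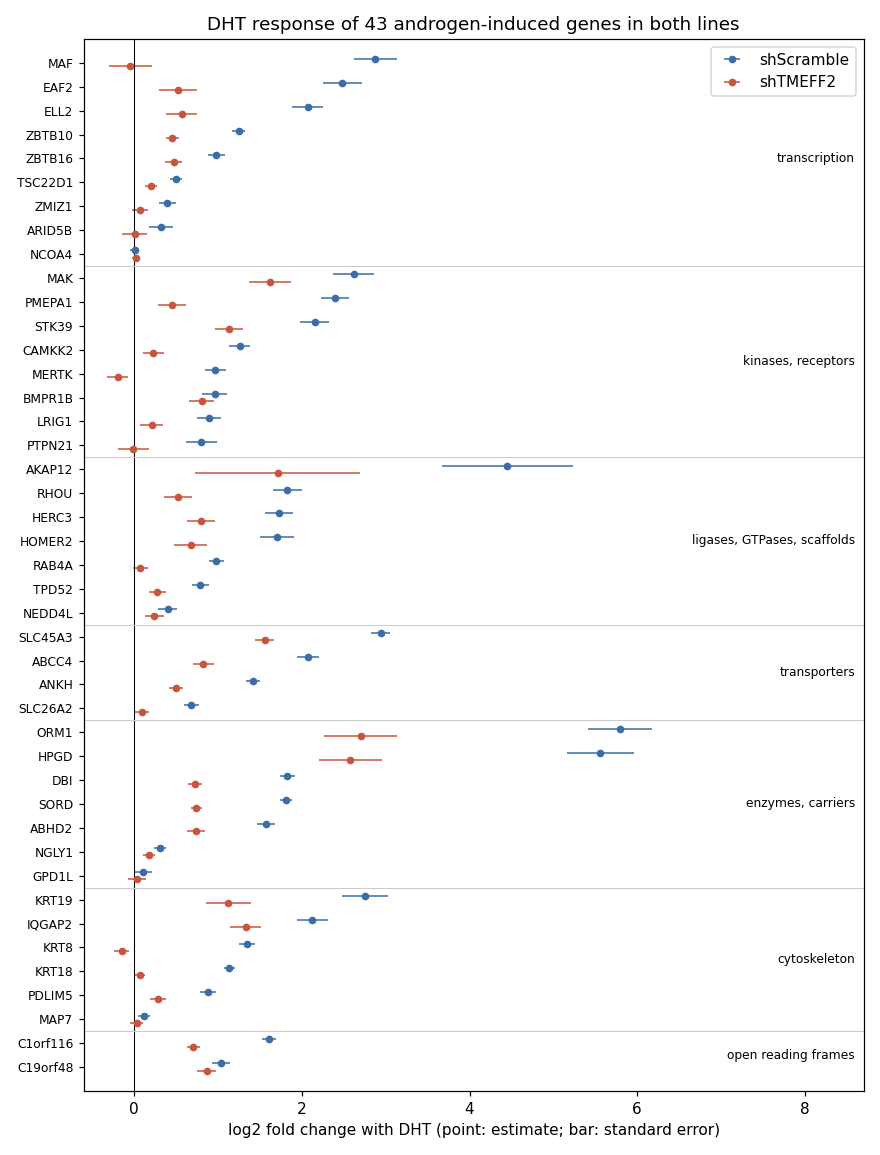
Log2 fold change with DHT (x axis) of the 43 genes, grouped by role, in shScramble (blue) and shTMEFF2 (red), as edgeR estimates with bars of 1 standard error from 3 libraries per group. The blue points reach 5.80 (ORM1) and lie to the right of the red points for 42 genes, while most red points sit between 0 and 1.

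The genes lie on 19 chromosomes of GRCh38 in the GENCODE annotation, in which 42 of them have a position. In 28 of these the gene overlaps another annotated gene and in 9 a protein-coding one, counted over whole gene spans with their introns. The authors assigned reads to transcripts, so reads could be shared only where transcript sequences overlap, which was not counted. The strand setting is not given in the sources used here. The keratin genes KRT8 (chr12:52897187-52949954, minus strand) and KRT18 (chr12:52948871-52952906, plus strand) overlap head to head, and PDLIM5 (chr4:94451857-94668227) and BMPR1B (chr4:94757955-95158448) are neighbours on the plus strand.

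The palindromic steroid response element, a pair of 6-base arms around a spacer of 3 bases (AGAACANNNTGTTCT, the same on both strands), was looked for in the promoters and around the gene starts to show what sequence stands near these genes. In RefSeq promoters on GRCh38.p14, which hold 250 bases before and 50 after a start, the exact element was in 0 of the 34 members whose promoter sequences were used here and in 1 of 34943 promoters overall. A lone arm (AGAACA or TGTTCT) was in the promoters of 5 of the 34, IQGAP2, NEDD4L, PMEPA1, STK39 and TSC22D1, against 17.6% of all genes with promoters. Within 50 kb on either side of the gene start on GRCh38, the exact element was near 2 of 42 members, ANKH and LRIG1 (4.76%, against 1.82% of 14037 genes tested). With at most 1 mismatch it was near 13 (31.0%, against 34.7%). Of these 13, 10 were raised by DHT in shScramble and 3 were not. A match is only a description of letters and not a binding site, and a gene without one may have an element farther away or of other letters. The following elements are shown because they are the 2 exact ones or are examples with 1 mismatch, near genes that DHT raised in shScramble and near GPD1L and MAP7, which it did not raise past the limits. Those of the other 5 genes are not shown. Each is written 5′ to 3′ on its gene's strand, with the element of 15 bases in capitals:
ANKH, minus strand, in its intron, chr5:14842867-14842881: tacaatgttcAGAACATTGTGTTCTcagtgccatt
LRIG1, minus strand, between genes, chr3:66511024-66511038: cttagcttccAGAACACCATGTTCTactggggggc
ABHD2, plus strand, in its intron, chr15:89118062-89118076: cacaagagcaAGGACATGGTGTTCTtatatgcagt
MERTK, plus strand, in its intron, chr2:111908776-111908790: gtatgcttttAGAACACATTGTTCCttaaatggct
RAB4A, plus strand, between genes, chr1:229245002-229245016: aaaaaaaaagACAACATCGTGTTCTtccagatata
IQGAP2, plus strand, in its intron, chr5:76450024-76450038: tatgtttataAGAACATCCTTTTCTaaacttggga
GPD1L, plus strand, in its intron, chr3:32108756-32108770: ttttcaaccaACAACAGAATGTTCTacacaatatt
MAP7, minus strand, in an intron of MAP3K5, chr6:136572827-136572841: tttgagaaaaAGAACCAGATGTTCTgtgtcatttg

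The element of ANKH lies 28904 bases downstream of the annotated start of the gene and that of LRIG1 lies upstream of it, at −9768. Those of ABHD2 (30610), MERTK (10176), IQGAP2 (46746) and GPD1L (3074) are downstream, and those of RAB4A (−26053) and MAP7 (−22015) upstream. The promoters of PMEPA1 and STK39 are shown because both genes were among the strongly induced ones and each window holds a lone arm, in capitals:
PMEPA1, minus strand, chr20:57710528-57710827: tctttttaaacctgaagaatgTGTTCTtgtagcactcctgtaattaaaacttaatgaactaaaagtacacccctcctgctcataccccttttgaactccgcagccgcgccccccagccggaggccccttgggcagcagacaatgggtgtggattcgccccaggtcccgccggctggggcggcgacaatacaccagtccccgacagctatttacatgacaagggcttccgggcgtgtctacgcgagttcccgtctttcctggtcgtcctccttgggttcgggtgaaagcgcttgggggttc
STK39, minus strand, chr2:168247546-168247845: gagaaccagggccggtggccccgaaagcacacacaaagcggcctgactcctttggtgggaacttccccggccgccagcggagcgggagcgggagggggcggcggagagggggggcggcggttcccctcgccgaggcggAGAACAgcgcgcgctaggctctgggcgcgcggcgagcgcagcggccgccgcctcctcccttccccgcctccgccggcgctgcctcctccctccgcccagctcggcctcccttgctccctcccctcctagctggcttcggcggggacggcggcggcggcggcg

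Among the 9 regulators of transcription and chromatin, 5 were raised by DHT in shScramble and 0 in shTMEFF2 (edgeR), where 5 were higher at an unadjusted p under 0.05. The difference passed for 4. MAF, a basic leucine zipper transcription factor, showed the most negative difference. It was present at 10.7, 13.8 and 8.66 CPM in shScramble −DHT and at 77.3, 90.5 and 75.0 CPM in shScramble +DHT, while the shTMEFF2 libraries held 7.79, 14.2 and 11.5 CPM without and 6.85, 13.9 and 11.7 CPM with DHT. The shScramble +DHT libraries stood above all the others, and the other 9 libraries overlapped. The log2 response was 2.87 in shScramble (SE 0.26, adjusted p = 5.4e-06) and −0.05 in shTMEFF2 (SE 0.26, adjusted p = 0.93), a difference of −2.92 (SE 0.36, adjusted p = 7.0e-04). ELL2, a transcription elongation factor, rose 4.20-fold in shScramble, from 52.0 ± 9.27 to 219 ± 36.0 CPM (SD, n = 3), and was at 51.7 ± 8.84 and 76.4 ± 16.1 CPM (SD, n = 3) in shTMEFF2. EAF2, which binds ELL proteins, rose from 2.02 ± 0.16 to 11.3 ± 3.49 CPM (SD, n = 3) in shScramble and was at 2.59 ± 0.33 and 3.72 ± 0.30 CPM (SD, n = 3) in shTMEFF2. The differences of this elongation pair were −1.51 and −1.96 on the log2 scale (adjusted p = 0.0049 and 0.0044).

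ZBTB10, a zinc finger repressor, had a log2 response of 1.25 in shScramble and 0.45 in shTMEFF2, the latter with an adjusted p of 0.0033 but under 1.5-fold, and a difference of −0.79 (adjusted p = 0.0014). ZBTB16, the zinc finger protein PLZF, had responses of 0.98 and 0.47 (adjusted p = 1.9e-05 and 0.011) and a difference of −0.50 that did not pass (adjusted p = 0.068; 0.032 without shScramble −DHT replicate 3). The chromatin protein ARID5B, the PIAS-like protein ZMIZ1, the leucine zipper protein TSC22D1 and NCOA4, known as a nuclear receptor coactivator and as a ferritin receptor, were not called in shScramble. Their log2 responses there were 0.32, 0.39, 0.50 and 0.00 (edgeR, adjusted p = 0.12, 0.012, 1.9e-04 and 0.97). ZMIZ1 and TSC22D1 thus missed only the 1.5-fold limit. NCOA4 had the most positive difference of this group, 0.02. Its libraries held 242, 244 and 240 CPM in shScramble −DHT and 248, 243 and 238 CPM in shScramble +DHT. In shTMEFF2 they held 199, 217 and 207 CPM without and 210, 204 and 218 CPM with DHT. The levels overlapped within each line, and every shTMEFF2 library lay below every shScramble library. NCOA4 has related sequences elsewhere in the genome, so its counts may include reads of these.

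All 8 kinases, receptors and signal brakes were raised in shScramble, 3 of them also in shTMEFF2, and the difference passed for 4. PMEPA1, a membrane protein that binds NEDD4-type ligases and dampens TGF-β signalling, had 50.4, 45.2 and 47.6 CPM in shScramble −DHT and 271, 237 and 244 CPM in shScramble +DHT. In shTMEFF2 the libraries held 38.7, 43.6 and 49.8 CPM without and 43.5, 77.9 and 59.1 CPM with DHT. The shTMEFF2 groups overlapped, and the highest shTMEFF2 +DHT library remained far below the shScramble +DHT libraries. The log2 response was 2.39 (SE 0.17, adjusted p = 7.3e-07) and 0.45 (SE 0.16, adjusted p = 0.090), with a difference of −1.94 (SE 0.23, adjusted p = 6.1e-04). Without shTMEFF2 +DHT replicate 1 the response in shTMEFF2 became 0.64 and was called (adjusted p = 0.0077).

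BMPR1B, a type I receptor for bone morphogenetic proteins, stood at the other end of the same group. Its libraries held 126, 151 and 144 CPM in shScramble −DHT and 284, 264 and 269 CPM in shScramble +DHT, and 52.9, 47.8 and 72.0 CPM without and 85.7, 94.4 and 121 CPM with DHT in shTMEFF2. The highest shTMEFF2 +DHT library thus lay below the lowest shScramble −DHT library. DHT raised BMPR1B 1.94-fold in shScramble and 1.74-fold in shTMEFF2 (adjusted p = 4.0e-04 and 0.0046), and the log2 responses differed by −0.15 (SE 0.21, adjusted p = 0.78).

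CAMKK2, a calcium-dependent kinase upstream of AMPK, rose 2.39-fold in shScramble, from 128 ± 11.7 to 306 ± 4.66 CPM (SD, n = 3), and was at 108 ± 21.6 and 126 ± 17.1 CPM (SD, n = 3) in shTMEFF2, with a difference of −1.03 (adjusted p = 0.0061). MERTK, a receptor tyrosine kinase that recognises apoptotic cells, was given by library after its values had been seen. It held 12.2, 12.2 and 10.2 CPM in shScramble −DHT and 21.2, 25.4 and 21.2 CPM in shScramble +DHT, against 10.3, 10.4 and 11.5 CPM and 10.6, 8.31 and 9.08 CPM in shTMEFF2. Its log2 response was 0.97 in shScramble and −0.20 in shTMEFF2 (adjusted p = 0.35), a difference of −1.17 (adjusted p = 0.0026). The kinases STK39, of the pathway that sets chloride transport, and MAK, a germ cell kinase also known from prostate cells, rose in both lines. The log2 responses of STK39 were 2.15 and 1.13, with a difference of −1.02 (adjusted p = 0.025). This call was lost without shScramble −DHT replicate 1 or 2, shScramble +DHT replicate 2 or 3, or shTMEFF2 −DHT replicate 2 or 3 (adjusted p = 0.052 to 0.061). Those of MAK, on low counts of 17 to 30 in each −DHT library, were 2.62 and 1.62, and the difference of −0.99 did not pass (SE 0.34, adjusted p = 0.14). LRIG1, a brake on growth factor receptors, and the tyrosine phosphatase PTPN21 rose in shScramble (0.89 and 0.80 on the log2 scale) and had responses of 0.21 and −0.01 in shTMEFF2. Their differences had adjusted p-values of 0.067 and 0.10, which fell to 0.049 without shScramble +DHT replicate 1 or to 0.037 without shTMEFF2 −DHT replicate 2 for LRIG1, and to 0.028 without shTMEFF2 −DHT replicate 3 for PTPN21.

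Of the 7 ubiquitin ligases, GTPases, scaffolds and traffic proteins, 6 rose in shScramble and 2 in shTMEFF2, and 3 passed the test of the difference. AKAP12, a scaffold for protein kinases A and C, varied most between libraries. It held 0.32, 0.41 and 3.52 CPM in shScramble −DHT and 11.3, 24.8 and 56.8 CPM in shScramble +DHT, and 0.62, 0.31 and 0.70 CPM and 1.02, 1.05 and 3.25 CPM in shTMEFF2. The groups of each line did not overlap, but replicate 3 was the highest library of its group in both lines, without and with DHT. The log2 response was 4.45 in shScramble (SE 0.78, adjusted p = 0.0011). It became 6.40 without shScramble −DHT replicate 3 and 3.67 without shScramble +DHT replicate 3. In shTMEFF2 it was 1.71 (SE 0.99, adjusted p = 0.30), and the difference of −2.74 had an SE of 1.34 (adjusted p = 0.32), so the most negative estimate of the group was also the least certain in this fit. With the replicate number as a block the difference was called (edgeR, adjusted p = 0.029).

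The small GTPase RHOU rose 3.54-fold in shScramble and had a fold change of 1.44 in shTMEFF2 (adjusted p = 0.061; called without shTMEFF2 −DHT replicate 2, adjusted p = 0.034), with a difference of −1.30 (adjusted p = 0.0080). RAB4A, a GTPase of early endosome recycling, rose from 68.1 ± 4.41 to 134 ± 14.1 CPM (SD, n = 3) in shScramble and was at 66.3 ± 5.25 and 69.6 ± 4.43 CPM (SD, n = 3) in shTMEFF2, with a difference of −0.91 (adjusted p = 0.0014). HERC3, a HECT-type ubiquitin ligase, rose 3.31-fold and 1.74-fold. Its difference of −0.93 was close to the threshold (adjusted p = 0.040), and it passed without shTMEFF2 −DHT replicate 1 or 2 but not without any of the other 10 libraries (adjusted p = 0.051 to 0.10). HOMER2, a postsynaptic scaffold family member, rose 3.26-fold and 1.59-fold. The second of these calls (adjusted p = 0.044) was lost without shScramble −DHT replicate 1, shScramble +DHT replicate 3, any shTMEFF2 −DHT library, or shTMEFF2 +DHT replicate 2 or 3 (adjusted p = 0.051 to 0.16), and the difference of −1.03 had an adjusted p of 0.056, or 0.0068 without shScramble −DHT replicate 2. TPD52, a vesicle traffic protein, rose 1.73-fold in shScramble and had a fold change of 1.21 in shTMEFF2 (adjusted p = 0.10), with a difference of −0.51 (adjusted p = 0.063, and 0.034 to 0.0497 without shScramble −DHT replicate 2 or shTMEFF2 +DHT replicate 3). NEDD4L, a HECT-type ligase for membrane transporters, had the least negative difference of the group, −0.16. Its libraries held 364, 357 and 248 CPM in shScramble −DHT and 422, 451 and 405 CPM in shScramble +DHT, and 241, 251 and 229 CPM and 286, 289 and 276 CPM in shTMEFF2. The +DHT libraries lay above the −DHT libraries in both lines, yet the log2 responses of 0.40 and 0.24 stayed under 1.5-fold (adjusted p = 0.021 and 0.20).

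The 4 transporters all rose in shScramble, 2 of them rose in shTMEFF2, and the difference passed for all 4. SLC45A3, the sugar transporter family member known as prostein, held 72.2, 63.9 and 73.1 CPM in shScramble −DHT and 545, 467 and 591 CPM in shScramble +DHT. In shTMEFF2 it held 56.2, 48.7 and 59.2 CPM without and 137, 169 and 176 CPM with DHT. The 4 groups did not overlap, with the −DHT groups of the lines next to each other. DHT raised it 7.66-fold and 2.94-fold (log2 2.94 and 1.55, adjusted p = 1.8e-08 and 1.9e-05), and the difference was −1.38 (SE 0.16, adjusted p = 5.1e-04). ABCC4, an efflux pump for cyclic nucleotides and prostanoids, rose from 205 ± 18.4 to 861 ± 34.6 CPM (SD, n = 3) in shScramble and from 146 ± 15.7 to 258 ± 52.5 CPM (SD, n = 3) in shTMEFF2. ANKH, which exports pyrophosphate and ATP, rose 2.67-fold in shScramble and had a fold change of 1.41 in shTMEFF2 (adjusted p = 0.0026). The differences of ABCC4 and ANKH were −1.25 and −0.92 (adjusted p = 0.0018 and 7.8e-04). SLC26A2, a sulfate transporter, had the least negative difference, −0.59 (SE 0.13, adjusted p = 0.019). It held 40.1, 39.1 and 41.8 CPM and then 72.0, 65.6 and 56.6 CPM in shScramble, and 33.5, 31.6 and 30.9 CPM and then 37.2, 32.9 and 32.2 CPM in shTMEFF2. Its shTMEFF2 groups overlapped, and its call was lost without shScramble −DHT replicate 2, shScramble +DHT replicate 1 or shTMEFF2 +DHT replicate 2 or 3 (adjusted p = 0.052 to 0.056).

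Of the 7 enzymes and carriers 5 rose in both lines, and the difference passed for the same 5. ORM1, an acute phase plasma glycoprotein, had the most negative difference of all 43 genes, on very low counts. Its libraries held 5, 3 and 2 counts in shScramble −DHT and 5, 1 and 3 counts in shTMEFF2 −DHT. With DHT they held 164, 178 and 217 counts (8.28, 8.69 and 10.9 CPM) in shScramble and 14, 22 and 26 counts (0.65, 1.00 and 1.16 CPM) in shTMEFF2. The +DHT groups were far apart and the −DHT groups were not told apart. The fitted log2 responses were 5.80 and 2.70 (SE 0.38 and 0.43), but they depend on the 10 and 9 counts summed over the −DHT libraries of the lines. The response in shTMEFF2 became 3.29 without shTMEFF2 −DHT replicate 1. The difference of −3.09 (SE 0.70, adjusted p = 0.023) was lost without shScramble −DHT replicate 2 or 3 or shTMEFF2 −DHT replicate 1 or 3 (adjusted p = 0.052 to 0.16). ORM1 and ORM2 are near copies, so their counts could have been split.

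HPGD, which inactivates prostaglandins, was given by library after its values had been seen. It held 0.50, 0.57 and 0.78 CPM and then 27.5, 29.6 and 30.5 CPM in shScramble, and 0.72, 0.84 and 1.44 CPM and then 3.24, 4.97 and 9.79 CPM in shTMEFF2. The +DHT libraries of shTMEFF2 spread over a wide range but all lay between the other groups. The rise was 47.1-fold in shScramble and 5.98-fold in shTMEFF2, and the log2 difference was −2.98 (SE 0.58, adjusted p = 0.011). SORD, the sorbitol dehydrogenase of the polyol pathway, had among the smallest errors of the 43. It rose from 372 ± 11.8 to 1303 ± 9.44 CPM (SD, n = 3) in shScramble and from 404 ± 18.9 to 675 ± 68.1 CPM (SD, n = 3) in shTMEFF2, with a difference of −1.07 (SE 0.10, adjusted p = 8.6e-05). DBI, the acyl-CoA binding protein, rose 3.55-fold and 1.66-fold, with a difference of −1.10 (adjusted p = 3.4e-04). It has processed copies in the genome, with which its reads could be shared. ABHD2, a lipid hydrolase, rose 2.98-fold and 1.67-fold, with a difference of −0.84 (adjusted p = 0.0078). The glycerol-3-phosphate dehydrogenase relative GPD1L and the deglycosylating enzyme NGLY1 were not called. GPD1L held 39.6, 36.6 and 42.0 CPM and then 44.6, 41.7 and 40.9 CPM in shScramble, and 38.8, 42.1 and 33.6 CPM and then 34.6, 44.5 and 37.8 CPM in shTMEFF2, so that all 4 groups overlapped. The log2 responses of NGLY1 were 0.31 and 0.18 (adjusted p = 0.0061 and 0.12).

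Of the 6 keratins and cytoskeletal proteins 5 rose in shScramble and 2 in shTMEFF2, and 4 passed the test of the difference. KRT8 and KRT18, which pair to form the filaments of luminal epithelia, were given by library after their values had been seen. KRT8 held 469, 444 and 431 CPM in shScramble −DHT and 1272, 1085 and 1059 CPM in shScramble +DHT, and 470, 545 and 461 CPM without and 427, 492 and 413 CPM with DHT in shTMEFF2. KRT18 held 336, 353 and 373 CPM and then 824, 739 and 768 CPM in shScramble, and 316, 350 and 356 CPM and then 334, 363 and 372 CPM in shTMEFF2. For both keratins the shScramble +DHT libraries stood above the other 9, which overlapped. Their log2 responses were 1.35 and 1.13 in shScramble (adjusted p = 5.7e-07 and 2.2e-07) and −0.15 and 0.06 in shTMEFF2 (adjusted p = 0.33 and 0.59). The differences of −1.49 (SE 0.13, adjusted p = 8.4e-05) and −1.07 (SE 0.10, adjusted p = 8.6e-05) were large against their errors. Keratin genes have many processed copies, so their counts may hold reads of these.

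KRT19, the smallest acidic keratin, responded on low counts, with 1.45, 1.49 and 1.17 CPM and then 9.29, 8.10 and 10.4 CPM in shScramble, and 1.44, 2.43 and 1.53 CPM and then 2.55, 4.97 and 4.27 CPM in shTMEFF2. Both lines rose without overlap, 6.73-fold and 2.17-fold. The call in shTMEFF2 (adjusted p = 0.017) was lost without shTMEFF2 −DHT replicate 1 or 3 or shTMEFF2 +DHT replicate 2 or 3 (adjusted p = 0.051 to 0.069). The difference of −1.63 (SE 0.38, adjusted p = 0.028) was lost without any shScramble −DHT library, shScramble +DHT replicate 1 or 3, or shTMEFF2 −DHT replicate 2 (adjusted p = 0.055 to 0.079). IQGAP2, a scaffold that binds actin, rose 4.36-fold and 2.51-fold, and its difference of −0.80 did not pass (SE 0.26, adjusted p = 0.11). PDLIM5, a PDZ and LIM domain protein of actin filaments, rose 1.84-fold in shScramble and had a fold change of 1.21 in shTMEFF2. Its difference of −0.60 (adjusted p = 0.024) was lost without shScramble −DHT replicate 2 or 3, shScramble +DHT replicate 1 or 2, shTMEFF2 −DHT replicate 2 or shTMEFF2 +DHT replicate 3 (adjusted p = 0.052 to 0.063). MAP7, a microtubule binding protein, was not called, with 82.5, 86.4 and 86.6 CPM and then 93.0, 96.2 and 88.5 CPM in shScramble, and 78.1, 85.5 and 88.1 CPM and then 77.2, 89.1 and 90.1 CPM in shTMEFF2.

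Both genes named as open reading frames by their chromosomal position rose in both lines. C1orf116, which encodes the androgen-induced protein SARG, held 124, 133 and 124 CPM and then 386, 403 and 370 CPM in shScramble, and 122, 128 and 113 CPM and then 176, 220 and 196 CPM in shTMEFF2. Its log2 responses of 1.60 and 0.71 differed by −0.90 (SE 0.11, adjusted p = 8.1e-04). C19orf48 is annotated as a transcribed unitary pseudogene and overlaps 3 other annotated genes on its strand, so its counts may include reads of these. It held 152, 162 and 152 CPM and then 336, 299 and 319 CPM in shScramble, and 126, 105 and 150 CPM and then 210.5, 254 and 226 CPM in shTMEFF2. Its log2 responses were 1.03 and 0.86, and the difference of −0.17 did not pass (SE 0.15, adjusted p = 0.65).

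**Figure D2:**
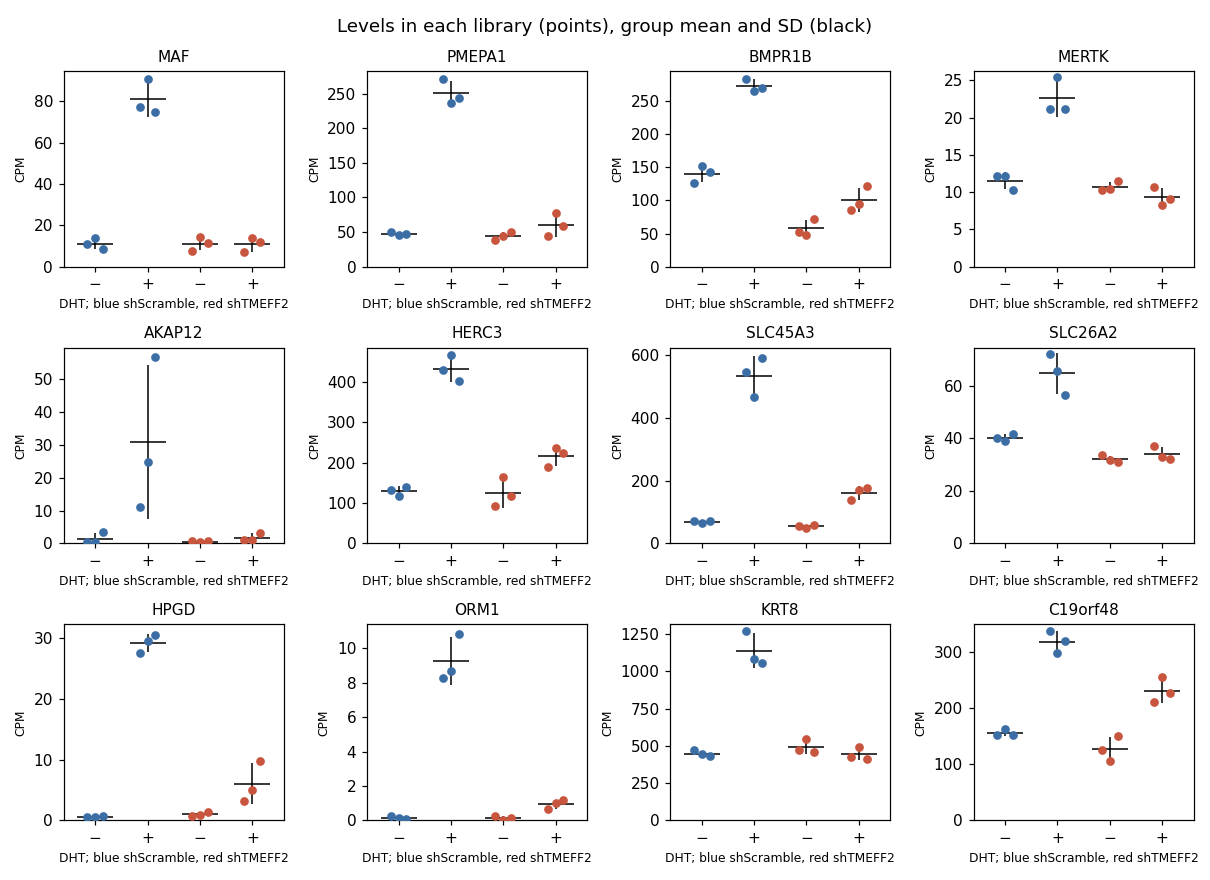
CPM (y axis, from 0) in each library of 12 of the genes, without (−) and with (+) DHT, in shScramble (blue) and shTMEFF2 (red), with black lines for the mean and SD of the 3 libraries. MAF, MERTK and KRT8 did not pass the test in shTMEFF2, SLC45A3, HPGD and C19orf48 rise in both lines, and BMPR1B starts lower in shTMEFF2 and rises in both.

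Without DHT, 1 of the 43 genes was lower in shTMEFF2 past the limits, against 0.272% of all genes. By edgeR 0 were higher, as by DESeq2 and limma-voom, with 1, PTPN21, higher at an unadjusted p under 0.05. The median log2 difference, shTMEFF2 minus shScramble, was −0.17 (0.00 over all genes), with 33 estimates below 0. The gene called was BMPR1B, at −1.28 (SE 0.15, adjusted p = 0.0015), a level 2.44 times lower. By the adjusted p alone 3 more were lower, TSC22D1 (−0.42, adjusted p = 0.018), ZBTB16 (−0.54, adjusted p = 0.032) and ZBTB10 (−0.37, adjusted p = 0.041), and ZBTB16 was called without shScramble −DHT replicate 2 (−0.64, adjusted p = 0.016). Every shTMEFF2 −DHT library lay below every shScramble −DHT library for 13 of the 43 (9.18% of all genes).

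With DHT 36 of the 43 were lower in shTMEFF2 past the limits, against 3.74% of all genes. All 43 estimates lay below 0, with a median of −1.12 (0.00 over all genes), and every shTMEFF2 +DHT library lay below every shScramble +DHT library for 40 of them (17% of all genes). This comparison shares its +DHT libraries with the comparisons of the responses and is not a separate observation. The lowest estimates were those of AKAP12 (−4.12), ORM1 (−3.30), MAF (−2.90), HPGD (−2.28) and PMEPA1 (−2.06). The estimate of AKAP12 was −3.34 without shScramble +DHT replicate 3 and −4.88 without shTMEFF2 +DHT replicate 3. Among genes called for this comparison, ZMIZ1 (−0.61) and NEDD4L (−0.59) stood just past 1.5-fold. ZMIZ1 fell under the limit without shScramble +DHT replicate 1 or shTMEFF2 +DHT replicate 3, and NEDD4L without shScramble −DHT replicate 3, shScramble +DHT replicate 1 or 2, shTMEFF2 −DHT replicate 3 or shTMEFF2 +DHT replicate 3. The 7 genes not called were ARID5B, NCOA4, PTPN21, GPD1L, NGLY1, MAP7 and C19orf48.

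**Figure D3:**
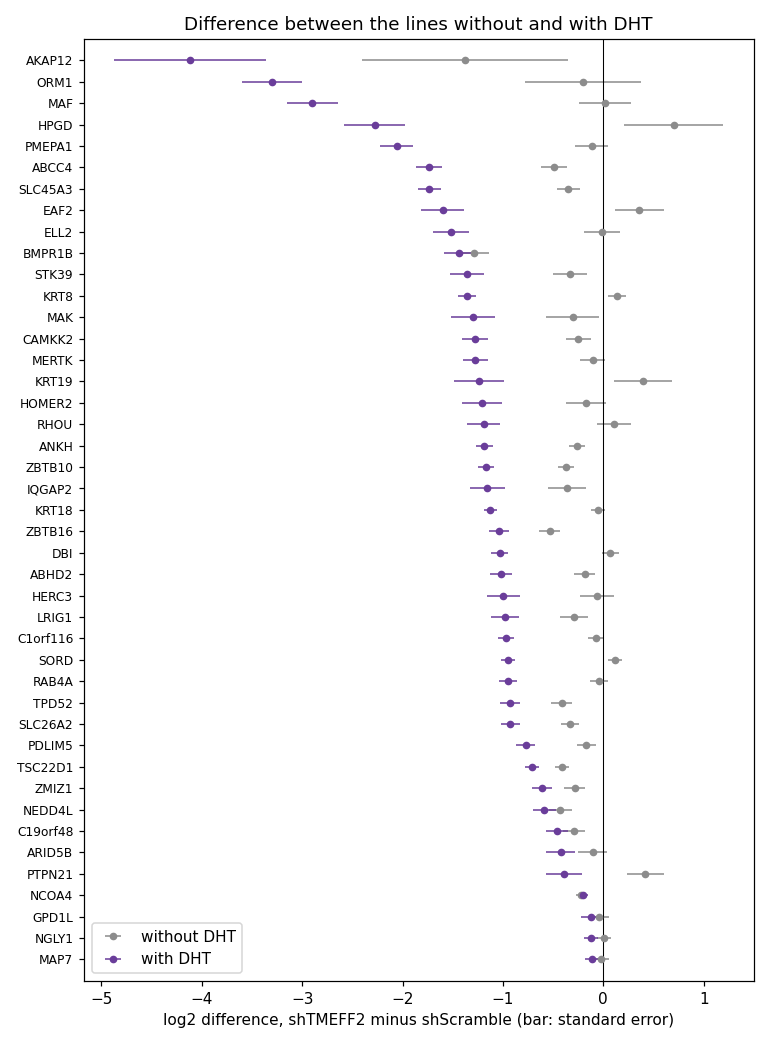
Log2 difference between the lines (x axis), shTMEFF2 minus shScramble, without (grey) and with (purple) DHT for the 43 genes, ordered by the value with DHT, with bars of 1 standard error. The grey points run from −1.375 (the uncertain AKAP12) to 0.70 (HPGD), with a median of −0.17, 33 of them below 0, and BMPR1B, the 1 gene called, at −1.28. The purple points run from −4.12 to −0.11.

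How much of its response a gene kept was expressed as the log2 response in shTMEFF2 in percent of that in shScramble, for the 35 genes raised in shScramble. The median was 38.4% (range −20.7 to 83.9%). Genes were chosen by their response in shScramble, which is also the divisor. This choice biases the share downwards, by an amount not given here, also for the 840 genes below. Over all 840 genes raised in shScramble the median was 35.3%, so the share kept by the androgen-induced genes was near that of induced genes in general. The percentage of genes that were also called in shTMEFF2 was 45.7 among the 35 and 25.2 among the 840. Less than 25% was kept by 11 genes, 25 to 50% by 18 and over 50% by 6. As the gain in CPM the median kept was 20.4% (range −12.6 to 63.7%), and the level reached with DHT was a median of 43.7% of that in shScramble (range 5.73 to 76.1%). Without shTMEFF2 +DHT replicate 1 the median share of the log2 response was 44.2%.

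The genes that kept most were BMPR1B (83.9%, SE 20.2) and C19orf48 (83.5%, SE 13.9), followed by IQGAP2 (62.5%, SE 10.3), MAK (62.0%, SE 11.03), SLC45A3 (52.9%, SE 4.45) and STK39 (52.4%, SE 8.84). The difference of the last 2 from an equal response passed the test, with the limit given for STK39 above, and that of the first 4 did not. At the other end were MERTK (−20.7%, SE 13.4), KRT8 (−10.9%, SE 6.70), MAF (−1.63%, SE 8.93), PTPN21 (−1.34%, SE 22.8), KRT18 (5.66%, SE 5.96) and RAB4A (7.02%, SE 9.17), which lay within 2 standard errors of 0. By role, the median kept was 46.4% for the 5 enzymes and carriers, whose values lay close together between 39.8 and 46.9%, and 37.4% for the 4 transporters. It was 36.6% for 6 ligases and traffic proteins, 31.7% for 5 cytoskeletal genes, 27.2% for 5 regulators of transcription and 21.0% for 8 kinases and receptors, whose values ranged from −20.7 to 83.9%. The ORM1 and HPGD values depend on the scale: 46.6 and 46.4% of the log2 response, but 8.72 and 17.5% of the gain in CPM.

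**Figure D4:**
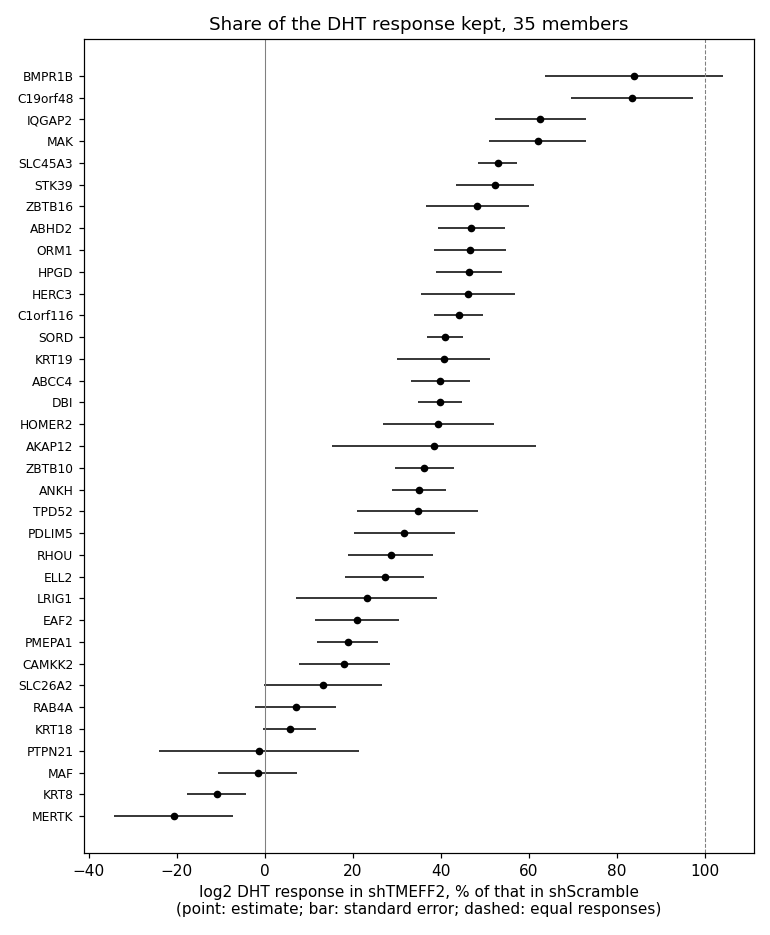
Log2 response to DHT in shTMEFF2 in percent of that in shScramble (x axis) for the 35 genes raised in shScramble, in descending order, with bars of 1 standard error by the delta method. The dashed line marks equal responses, which the bar of BMPR1B alone reaches, and 4 genes (PTPN21, MAF, KRT8 and MERTK) lie below 0.

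The same comparisons were made for 66 other tested genes of the androgen response. DHT raised 43 of them in shScramble and 15 in shTMEFF2, against 5.45 and 3.28% of all genes. It lowered 1, HSD17B14, named because of this count, in both lines, against 6.45 and 1.6% of all genes. The response was smaller in shTMEFF2 for 31, against 3.29% of all genes. The level was lower in shTMEFF2 for 2 genes without DHT, KLK2 and KLK3, also named because of the count, and for 38 with DHT. The shares of all genes were 0.272 and 3.74%. The median log2 responses of these genes were 1.01 and 0.28. The smallest p-values for the difference were those of LIFR, the receptor subunit for leukaemia inhibitory factor, of ACSL3, a long-chain acyl-CoA synthetase, and of FKBP5, an immunophilin. LIFR was at 35.7 ± 3.98 and 104 ± 7.29 CPM (SD, n = 3) in shScramble and at 32.5 ± 1.84 and 30.4 ± 1.15 CPM (SD, n = 3) in shTMEFF2, without and with DHT, a difference of −1.64 (SE 0.12, adjusted p = 6.7e-05). The differences of ACSL3 and FKBP5 were −1.98 and −2.50 (adjusted p = 8.4e-05 for each).

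Of 13 pioneer factors, coregulators and related genes of steroid hormone action, 1 was raised by DHT in shScramble, GRHL2, an epithelial transcription factor (log2 0.73), and 1 passed the test of the difference. This was NCOA1, a steroid receptor coactivator, with a difference of 0.55 (adjusted p = 0.0050). Of all genes 5.45% were raised in shScramble and 1.65% had a larger response in shTMEFF2, so counts of 1 among 13 are not read as a result about the list. With DHT in shScramble 0 of the 13 were called lower, 7 were lower at an unadjusted p under 0.05 (edgeR), and the median log2 response was −0.16. GRHL2 was also called lower in shTMEFF2 than in shScramble with DHT, as were 3.74% of all genes. The part of the summed luminal markers, which hold androgen-induced genes themselves, in the smaller responses was not tested. For shTMEFF2 +DHT replicate 1 only a fit without it was made. There the median share kept was 44.2%, against 38.4%, and HERC3 lost its call for the difference.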

How the data were processed

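RNA-seq was available for 12 LNCaP libraries in 4 groups of 3. Per the labels and methods, the authors trimmed reads with Trimmomatic, quantified transcripts with kallisto 0.42.3 on GRCh38 and deposited estimated counts per gene (tximport, scaled by library size and transcript length). Each library has 2 of the 24 columns. These were summed and rounded, and edgeR 4.0.16 (R 4.3.3) was run with TMM, filterByExpr (minimum count 10, minimum total 15), 1 mean per group over all 12 libraries, quasi-likelihood tests and Benjamini-Hochberg adjustment over 15419 genes. Called means at least 1.5-fold and an adjusted p of at most 0.05, and for the difference of the responses the adjusted p alone. Levels are TMM-normalized CPM. The members and lists were chosen with earlier results of these data known. All members could be named, with values by library for the lowest and highest difference in each role, members called between the lines without DHT, TMEFF2, and up to 3 genes of each other list with the smallest p for the difference. Exceptions are stated, and some genes of the other lists are not reported here. Alternatives were DESeq2 1.42.0, limma-voom (limma 3.58.1), other normalizations and filters, 6 libraries, a replicate block, each library left out, and either column alone. The statistics were tested on simulated counts. One symbol of the androgen response list was not found in the table, and HERC3 has no single position in the annotation.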

Additional observations from a re-analysis of the deposited data

Results flagged for a closer look

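The DHT response differed between the lines, by the test of the difference itself (edgeR, adjusted p of at most 0.05), for 25 of the 43 genes, in each case with the smaller log2 response in shTMEFF2. Among the transcription regulators the differences, shTMEFF2 minus shScramble on the log2 scale, were −2.92 for MAF, −1.96 for EAF2, −1.51 for ELL2 and −0.79 for ZBTB10. Among kinases, receptors and signal brakes they were −1.94 for PMEPA1, −1.17 for MERTK, −1.03 for CAMKK2 and −1.02 for STK39. For RHOU, HERC3 and RAB4A they were −1.30, −0.93 and −0.91, and for the transporters SLC45A3, ABCC4, ANKH and SLC26A2 they were −1.38, −1.25, −0.92 and −0.59. Among enzymes and carriers they were −3.09 for ORM1, −2.98 for HPGD, −1.10 for DBI, −1.07 for SORD and −0.84 for ABHD2. For KRT19, KRT8, KRT18 and PDLIM5 they were −1.63, −1.49, −1.07 and −0.60, and for C1orf116 the difference was −0.90.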

How the results depend on the processing

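Over 22 refits, 101 of 113 calls of single genes held in every refit that tested the gene. A gene that a refit filtered out was not counted as lost there. Of the calls, 12 were lost in at least 1 refit, 10 values not called gained a call, and 0 calls reversed. Genes raised by DHT numbered 31 to 39 (35) in shScramble and 13 to 19 (16) in shTMEFF2. The lowest numbers came with the filter at a mean above 5 CPM, which left low-level members untested. Smaller responses numbered 19 (column 1 alone) to 31 (DESeq2), against 25, and 21 to 24 when a library was left out. The call of ELL2 for the difference and of PTPN21 in shScramble was lost with column 1 alone. Genes lower in shTMEFF2 without DHT numbered 1, but 2 with column 2 alone, 4 by the adjusted p alone and 1 to 2 when a library was left out. The median share kept was 38.4%, but 20.4% as the gain in CPM, and 35.7 to 44.2% when a library was left out. With the replicate number as a block, 35 and 15 genes were raised, 28 had a smaller response and 36 were lower with DHT (HOMER2 in shTMEFF2 lost its call, and AKAP12, LRIG1 and TPD52 gained one for the difference). Same-numbered libraries correlated at −0.0017 to 0.17, with 3 of 18 pairs above 0.1. All 12 libraries had their highest mean correlation with their own number. The main fit did not use the numbers as pairing, and whether they mark pairs was not tested. Values near 0 that were not called changed sign: NCOA4 in shScramble with library size only (−0.065), a mean above 5 CPM (−0.019), no filter (−0.00060) and column 1 (−0.013), MAF (0.031), MERTK (0.024), PTPN21 (0.21) and ARID5B (−0.0029) in shTMEFF2 with column 1, ARID5B with no filter (−0.0014), and PTPN21 with limma-voom (0.017) and the block (0.0041). When a library was left out the ranges were −0.015 to 0.020 for NCOA4 in shScramble, and in shTMEFF2 −0.26 to 0.20 for MAF, −0.091 to 0.11 for ARID5B, −0.0072 to 0.054 for NCOA4, −0.18 to 0.17 for PTPN21, −0.067 to 0.11 for GPD1L and −0.022 to 0.096 for MAP7, and −0.30 to 0.046 for the difference of BMPR1B. Promoters held 0 exact elements and 0 with 1 mismatch, and a lone arm in 5 members. The cause of these changes was not tested. A fit of 6 libraries for the difference was not run, since it needs all 12. Low counts limit ORM1, HPGD, AKAP12, MAK and KRT19.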
